A study of Mus musculus with 4 samples.

Results

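S100a8, S100a9 and 6 other genes that neutrophils and their precursors transcribe (Ngp, Camp, Ltf, Lyz2, Elane and Mpo) were followed in RNA of sorted splenic follicular B (FOB) cells. The 8 genes were taken by symbol from a table of 55401 genes. S100a8 and S100a9 were selected on their higher counts in the Hnrnpf bKO libraries, so their genotype difference is given as a description with no test. The other 6 were chosen as genes of the neutrophil lineage, to follow RNA of another cell type in the sorted cells. The comparison asked whether that RNA differed between the genotypes along with S100a8 and S100a9.

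Bulk mRNA was sequenced from 2 WT and 2 Hnrnpf bKO libraries of C57BL/6 mice labelled as 7 weeks old. FOB cells, the recirculating naive B cells of the follicle, had been sorted from spleen as B220+ CD93- CD23 high CD21 low. WT mice carried floxed Hnrnpf alleles and no Cre, and Hnrnpf bKO mice carried the same floxed alleles with a Cre that acts in the B lineage and not in neutrophils. Both groups were thus Hnrnpf fl/fl, and the groups differed in Cre as well as in Hnrnpf. The sources used here do not say whether mice were pooled, or that the 2 libraries of a genotype came from separate animals, so p-values measure the spread between these libraries, which may be technical. Library totals ran from 15698567 to 18908963 counts, and 19869 to 20317 genes had a count. The second bKO library had the highest count of each of the 8 genes, so results are also given without it, with the lone bKO library assumed to vary as the WT pair did. Hnrnpf itself had 5780 and 6634 counts in WT against 1167 and 1194 in bKO, a log2 fold change of -2.32 (SE 0.06), so its level in bKO was 20.1% of WT. The 12 B cell markers listed for this check, Cd79a and Ighd among them, summed to between 16081 and 16766 counts scaled to library size (CPM, counts per 1e6) in every library.

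S100A8 and S100A9 are small calcium-binding proteins that pair as calprotectin, which fills the cytosol of neutrophils and can signal through TLR4 and the receptor RAGE when it is released. Neutrophils load their granules in the order in which they mature in bone marrow. Myeloperoxidase (Mpo) and neutrophil elastase (Elane) are primary granule proteins made by promyelocytes, whereas lactoferrin (Ltf), the cathelicidin Camp and neutrophilic granule protein (Ngp) are secondary granule proteins made at the later myelocyte stages. Lyz2 encodes lysozyme, which monocytes and macrophages make as well as neutrophils. The C/EBP factors and PU.1 are known drivers of this program. B cells are not known for making granule proteins.

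The promoters of S100a8, S100a9, Ngp and Ltf are shown because the first pair was selected on counts and the other 2 genes passed the test between genotypes. They run from 250 bases before to 50 bases after the annotated start, 5′ to 3′ along the gene, from RefSeq on GRCm38.p6, in which all 8 genes were matched. Capitals mark the letters searched on both strands: the C/EBP letters TTGCNNAA, the PU.1 letters GAGGAAG and the TATA box TATAAA. These motifs do not overlap each other in the sequences shown.
S100a8 promoter, chr3:90668821-90669120, plus strand: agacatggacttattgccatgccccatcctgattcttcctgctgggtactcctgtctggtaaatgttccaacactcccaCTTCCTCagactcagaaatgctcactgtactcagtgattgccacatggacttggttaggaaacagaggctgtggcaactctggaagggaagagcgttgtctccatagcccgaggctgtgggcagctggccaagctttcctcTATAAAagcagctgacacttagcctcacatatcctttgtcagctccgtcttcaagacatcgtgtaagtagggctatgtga
S100a9 promoter, chr3:90695672-90695971, minus strand: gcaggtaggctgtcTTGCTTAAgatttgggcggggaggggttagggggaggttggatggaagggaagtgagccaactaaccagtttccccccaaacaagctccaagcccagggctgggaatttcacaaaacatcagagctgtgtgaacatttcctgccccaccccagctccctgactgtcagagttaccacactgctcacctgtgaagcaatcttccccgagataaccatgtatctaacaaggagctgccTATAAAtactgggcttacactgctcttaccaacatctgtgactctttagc
Ngp promoter, chr9:110419558-110419857, plus strand: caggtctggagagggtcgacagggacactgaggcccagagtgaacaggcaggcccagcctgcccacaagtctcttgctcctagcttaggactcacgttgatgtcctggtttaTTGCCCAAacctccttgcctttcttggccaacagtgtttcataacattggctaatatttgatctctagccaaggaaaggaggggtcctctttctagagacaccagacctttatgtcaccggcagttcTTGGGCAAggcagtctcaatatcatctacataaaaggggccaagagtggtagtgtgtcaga
Ltf promoter, chr9:111019042-111019341, plus strand: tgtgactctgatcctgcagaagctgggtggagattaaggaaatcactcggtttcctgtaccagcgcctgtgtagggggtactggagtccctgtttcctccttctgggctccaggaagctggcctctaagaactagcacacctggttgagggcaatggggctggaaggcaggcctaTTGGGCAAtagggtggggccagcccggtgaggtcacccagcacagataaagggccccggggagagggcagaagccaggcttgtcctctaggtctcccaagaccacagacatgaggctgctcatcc
The C/EBP letters stood in 3 of the 8 promoters, those of S100a9 (236 bases before the start), Ngp (138 and 11 bases before) and Ltf (75 bases before), and in 10.8% of the 32851 promoters of the table. The PU.1 letters stood in S100a8 (171 bases before the start), Elane and Mpo, also 3 of 8, and in 13.6% of all promoters. TATAAA stood in S100a8, 30 bases before the start, and in S100a9 at the annotated start itself, and in 13.6% of all promoters. No letters of these 3 motifs were found in the windows of Camp and Lyz2. A match is a run of letters in this window and was not tested as a bound site.

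S100a8 lies on chromosome 3 of GRCm38 (chr3:90668978-90670035, plus strand, ENSMUSG00000056054), with 3 exons in its coding transcript. It had 30 and 48 counts in the WT libraries, below the 81 and 134 of the Hnrnpf bKO libraries. After scaling this was 1.83 CPM (95% exact interval 1.24 to 2.62) and 2.52 CPM (1.86 to 3.34) in WT. In Hnrnpf bKO it was 5.16 CPM (4.099 to 6.41) and 7.47 CPM (6.26 to 8.85). Both bKO libraries thus lay above both WT libraries, and no WT interval met a bKO interval; these intervals and those below cover counting error only, since PCR copies were not marked by molecular identifiers. The group means were 2.18 ± 0.486 CPM in WT and 6.32 ± 1.63 CPM in Hnrnpf bKO (SD, n = 2), and the fitted log2 fold change was 1.53 (SE 0.28). Taken library by library, a bKO library exceeded a WT library by between 2.05 and 4.08 fold, beside 1.38 fold between the WT libraries and 1.45 fold between the bKO libraries. In bulk RNA, more cells of a type and more RNA per cell cannot be told apart.

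S100a9, the partner subunit, lies 22596 bases from S100a8 on the opposite strand (chr3:90692632-90695721, ENSMUSG00000056071), with no other gene of the table between them. Its counts were 52 and 90 in WT against 119 and 223 in bKO, or 3.18, 4.73, 7.58 and 12.4 CPM in that order. The groups again did not overlap, and the second bKO library was the highest. The means were 3.95 ± 1.096 CPM in WT and 10.01 ± 3.43 CPM in Hnrnpf bKO (SD, n = 2), a log2 fold change of 1.34 (SE 0.26). Without that library the log2 fold change was 0.93, under the 2-fold threshold, where that of S100a8 was 1.23. The transcripts of the pair share 60.7% of 448 aligned bases and no run of 100 bases, so a read of that length belongs to 1 gene or the other. The ratio of S100a8 to S100a9 counts was 0.577 and 0.533 in WT against 0.681 and 0.601 in bKO, so both bKO ratios lay above both WT ratios. Its range was narrower than that of either gene's level. Since both genes were picked for higher bKO counts, that narrower range carries no weight.

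FPKM values, which scale counts by gene length and library total, put the pair at a modest level in this RNA. S100a9 stood at 6.09 and 9.12 FPKM in WT against 14.52 and 23.64 in bKO, and S100a8 at 2.64 and 3.66 FPKM in WT against 7.43 and 10.68 in bKO. Among the 14123 genes left by the filter on low counts, S100a8 stood at the 32.8 and 38.7 percentile of FPKM in the WT libraries and at the 55.0 and 64.5 percentile in the bKO libraries. Per length S100a9 was the most abundant of the 8 genes in each of the 4 libraries.

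**Figure D1:**
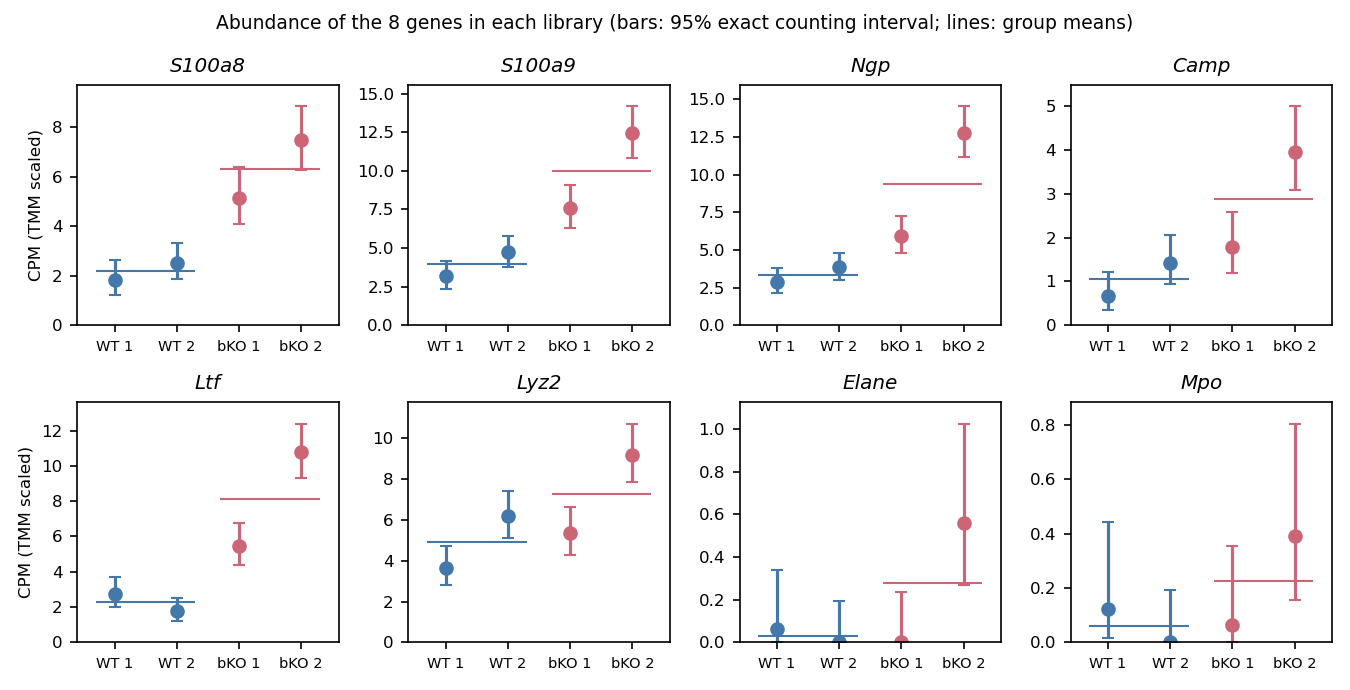
CPM of the 8 genes (y axes, each from 0, TMM scaled) in the 2 WT (blue) and 2 Hnrnpf bKO (red) libraries, with bars for the 95% exact counting interval and lines for the group means. The bKO libraries lie above the WT libraries for S100a8 and S100a9, which were picked for higher bKO counts, and for Ngp, Camp and Ltf. The same held for 25.3% of all genes tested. The groups overlap for Lyz2, Elane and Mpo.

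Of the genes that were not chosen for their counts, Ltf and Ngp were higher in the Hnrnpf bKO libraries. Which cells of the sort held this RNA was not tested. Ltf, the iron-binding lactoferrin (chr9:111019271-111042767, plus strand, ENSMUSG00000032496), had 45 and 34 counts in WT against 86 and 193 in bKO. That was 2.75 and 1.79 CPM in WT against 5.48 and 10.8 CPM in Hnrnpf bKO. The groups did not overlap, and the second bKO library held nearly as much again as the first (1.96 fold). The log2 fold change was 1.86 (SE 0.33), with an adjusted p of 0.00454 in edgeR's quasi-likelihood test over all genes tested. Without the second bKO library it was 1.28, with an adjusted p of 0.0133 in the same test.

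Ngp, a cystatin-like granule protein (chr9:110419747-110423012, plus strand, ENSMUSG00000032484), had 47 and 73 counts in WT against 93 and 229 in bKO. Its levels were 2.87 and 3.83 CPM in WT against 5.93 and 12.8 CPM in bKO. The groups did not overlap, but the lower bKO library exceeded the higher WT library by 1.55 fold, whereas the bKO libraries differed from each other by 2.15 fold. The log2 fold change was 1.48 (SE 0.31), with an adjusted p of 0.0129 in the quasi-likelihood test. Without the second bKO library it was 0.81, with an adjusted p of 0.112, so the call on Ngp rests on that library.

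Camp encodes the antimicrobial peptide CRAMP (chr9:109847379-109849617, minus strand, ENSMUSG00000038357). It had 11 and 27 counts in WT against 28 and 71 in bKO, or 0.672, 1.42, 1.78 and 3.96 CPM. The groups did not overlap, yet WT replicate 2 and bKO replicate 1 differed by 1.26 fold only. The log2 fold change of 1.44 (SE 0.46) did not pass the threshold (adjusted p 0.0813, quasi-likelihood test), and at these counts its error was the widest of the 6 genes tested. Without the second bKO library it was 0.75 (adjusted p 0.572).

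Lyz2 (chr10:117277331-117282321, minus strand, ENSMUSG00000069516) had 60 and 118 counts in WT against 84 and 165 in bKO. At 3.66 and 6.20 CPM in WT against 5.35 and 9.20 CPM in bKO, the groups overlapped. The log2 fold change of 0.56 (SE 0.29) did not pass the threshold (adjusted p 0.302, quasi-likelihood test), and without the second bKO library it was 0.11 (adjusted p 0.910). Lyz2 has a close copy, Lyz1, 5475 bases away, with 96.0% of 1262 aligned transcript bases identical, and 24 of the 1217 runs of 100 bases in Lyz2 also occur in Lyz1. Lyz1 had 0 and 7 counts in WT against 3 and 2 in bKO, and reads from the shared runs cannot be told apart between the copies. The other 7 genes share no such run with any other annotated transcript.

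The primary granule genes were close to the detection limit, which was 3 counts, or 0.159 to 0.191 CPM. Elane (chr10:79886247-79888215) had 1 and 0 counts in WT against 0 and 10 in bKO. Mpo (chr11:87793581-87804413) had 2 and 0 counts in WT against 1 and 7 in bKO. Neither gene passed the filter on low counts, and above the limit they were seen in the second bKO library alone, at 0.558 CPM (95% exact interval 0.267 to 1.03) for Elane and 0.390 CPM (0.157 to 0.804) for Mpo. No fold change is given for them, and a difference between the genotypes was not detectable at this depth.

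Of the 8 genes, 6 passed the filter. Of the 4 among them that were not picked for their counts, 2 (Ngp and Ltf) reached an adjusted p of 0.05 and a 2-fold change upward, where 0.644% of all genes tested did. For 3 of these 4 both bKO libraries stood above both WT libraries, which held for 25.3% of all genes tested. The summed counts of the 8 genes were 248 and 390 in WT against 492 and 1032 in bKO. The sum over the 6 genes not picked for their counts was 10.1 and 13.2 CPM in WT against 18.6 and 37.6 CPM in bKO, a ratio of means of 2.41. The same ratio was 1.59 without the second bKO library. For S100a8 and S100a9 together it was 2.66, and 2.08 without that library. An exact permutation test of such sums over 2 against 2 libraries cannot give a two-sided p under 0.333, so none is given.

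The makeup of this RNA was also compared between libraries, by the share of each gene in the summed counts of the 8. S100a8 and S100a9, picked for higher bKO counts, are in that sum, so a gene whose counts differed less takes a lower share in bKO by construction. Lyz2 made up 24.2% and 30.3% of it in WT against 17.1% and 15.99% in bKO, while its mean level was 4.93 CPM in WT and 7.28 CPM in bKO. Of the summed counts of the 6 genes not picked for their counts, Lyz2 made up 36.1% (95% Wilson interval 29.2 to 43.7) and 46.8% (40.8 to 53.0) in WT and 28.8% (23.9 to 34.2) and 24.4% (21.4 to 27.8) in Hnrnpf bKO. This sum was added after the shares over the 8 had been seen, and the interval of the first WT library met that of the first bKO library. In the sum over the 8, the share of Ngp was 18.95% and 18.7% in WT against 18.9% and 22.2% in bKO, with overlapping groups. Ltf held 18.1% and 8.72% in WT against 17.5% and 18.7% in bKO, so the second WT library was the one with little Ltf.

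**Figure D2:**
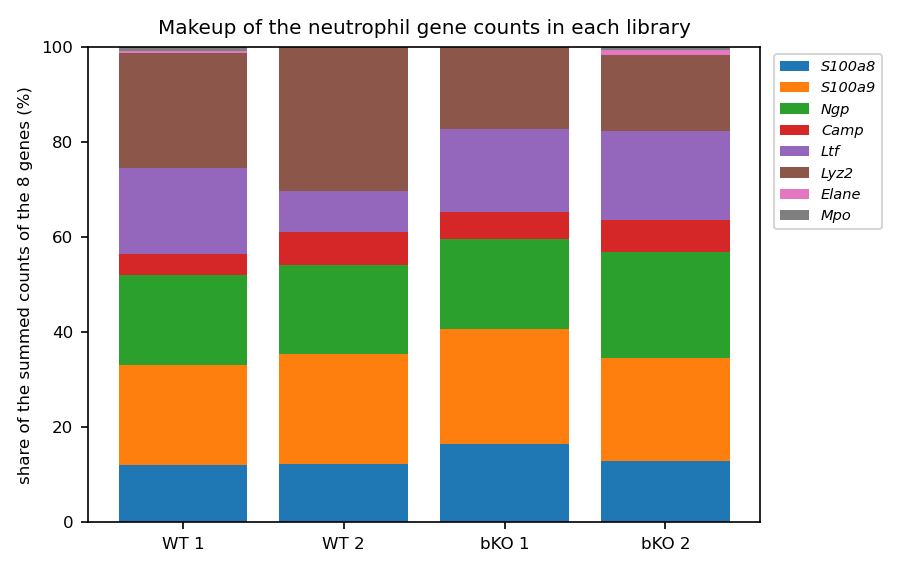
Share of each of the 8 genes in their summed counts (y axis, percent) in each library (x axis), with S100a8 and S100a9, which were picked for higher bKO counts, in the sum. Lyz2 takes 24.2% and 30.3% of the WT counts and 17.1% and 15.99% of the Hnrnpf bKO counts, and the S100a8 share lies between 12.1% and 16.5% throughout.

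The wider neutrophil program was read from 3 marker lists of 41 genes, of which 40 were found in the table and 16 passed the filter. Of the 12 secondary granule genes, 7 were tested. Of these, 3 rose (Ltf, Ngp and Chil3, a chitinase-like secreted protein), none fell and 4 did not pass, and 6 of the 7 had both bKO libraries above both WT libraries, beside 25.3% of all genes tested. The median log2 fold change of the 7 was 1.48, beside -0.00 over all genes tested. Chil3 had 21 and 21 counts in WT against 44 and 90 in bKO, with a log2 fold change of 1.72 (SE 0.36, adjusted p 0.0125, quasi-likelihood test), and without the second bKO library it was 1.23 (adjusted p 0.125). It was the only gene of the lists outside the 8 that passed, 1 of 10 tested, beside 0.644% of all genes.

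Lcn2, the siderophore-binding lipocalin, had 17 and 31 counts in WT against 29 and 107 in bKO, so the groups overlapped in counts but not after scaling. Its log2 fold change of 1.55 (SE 0.48) did not pass (adjusted p 0.0732, quasi-likelihood test), and without the second bKO library it was 0.46 (adjusted p 0.740). The neutrophil surface protein gene Cd177 (10, 13, 19 and 20 counts in the WT and then the bKO libraries) had a log2 fold change of 0.83 that did not pass. The haptoglobin gene Hp (4, 20, 12 and 27 counts, with overlapping groups) was kept by the filter on account of its bKO libraries and did not pass either. Itgb2l, with 0 and 1 counts in WT against 2 and 10 in bKO, was not tested, and neither were Fcnb, Mmp8, Wfdc21 and Olfm4.

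Genes that mark mature neutrophils were listed apart from the granule genes. Of the 22 genes of this list 21 were found and 9 tested. Apart from S100a8 and S100a9, none of the other 7 passed in either direction with edgeR or DESeq2. At an unadjusted p under 0.05 in edgeR, 0 were lower and 1 was higher. The 1 was Padi4, which the filter kept on account of its bKO libraries alone, so its direction carries no weight. Of the 9, 4 had both bKO libraries above both WT libraries, beside 25.3% of all genes tested. These were S100a8 and S100a9, which were picked for their counts, Padi4 and G0s2. The median log2 fold change of all 9 was 0.22. Csf3r, the G-CSF receptor, had 30 and 41 counts in WT against 33 and 34 in bKO, a log2 fold change of -0.00 (SE 0.33). The gelatinase gene Mmp9 had 21 and 24 counts in WT against 20 and 28 in bKO, a log2 fold change of 0.16 (SE 0.39). For both genes the groups overlapped. G0s2, which encodes an inhibitor of lipolysis, had 47 and 54 counts in WT against 50 and 62 in bKO, and its groups did not overlap after scaling (log2 fold change 0.22, SE 0.27, adjusted p 0.708 in the quasi-likelihood test).

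Trem1, an activating receptor of myeloid cells, had 11 and 23 counts in WT and 10 in each bKO library, a log2 fold change of -0.67 (SE 0.51). It was kept by the filter on account of its WT libraries. Padi4, which citrullinates histones in neutrophil extracellular traps, had 3 and 9 counts in WT against 10 and 23 in bKO, so it was kept by the filter on account of its bKO libraries alone, and it did not pass (adjusted p 0.179, quasi-likelihood test). Ly6g, the surface marker by which mouse neutrophils are sorted, had 1 and 1 counts in WT against 1 and 13 in bKO, so like Elane it exceeded 3 counts in the second bKO library alone. The chemokine receptor gene Cxcr2 (5, 10, 6 and 6 counts) and Retnlg (6, 12, 7 and 9 counts) were too low to be tested. The highest counts of this list were those of Pglyrp1, a peptidoglycan recognition protein gene, with 552 and 498 counts in WT against 484 and 449 in bKO (log2 fold change -0.10, SE 0.13).

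**Figure D3:**
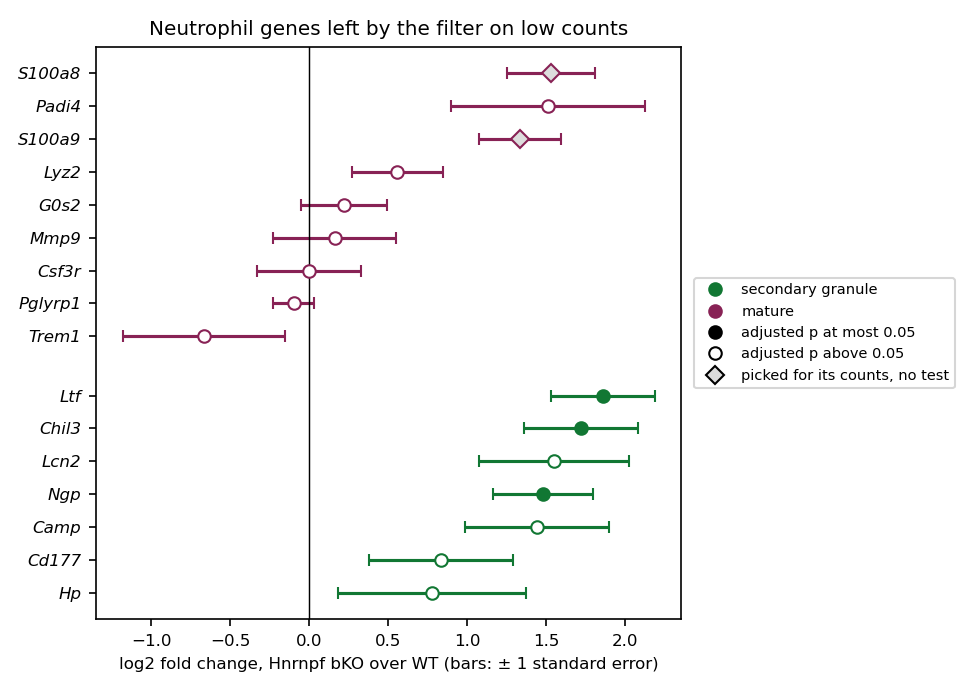
Log2 fold change (x axis, Hnrnpf bKO over WT, with bars of 1 standard error) of the 16 neutrophil genes that passed the filter on low counts, with filled circles for an adjusted p of at most 0.05 and diamonds for S100a8 and S100a9, which were selected for their counts. Hp and Padi4 were kept by the filter on account of their bKO libraries, and Trem1 on account of its WT libraries. The secondary granule genes (green) run from 0.78 to 1.86, and the mature neutrophil genes (purple) from -0.67 to 1.53.

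Summed over each list, the secondary granule genes stood at 10.3 and 12.1 CPM in WT against 20.8 and 42.6 CPM in bKO, and the primary granule genes at 0.183 and 0.0525 CPM in WT against 0.255 and 1.28 CPM in bKO. Ctsg, the cathepsin G gene, had no count in any library. All 3 lists together, without the 8 genes, summed to 46.2 and 41.7 CPM in WT against 49.1 and 51.9 CPM in bKO, a ratio of 1.15. Much of that sum was Pglyrp1, and without it, a sum added after the first had been seen, the values were 12.5 and 15.6 CPM in WT against 18.3 and 26.9 CPM in bKO, a ratio of 1.61. Across the 3 lists, with S100a8 and S100a9 set aside, 3 of 14 genes were called higher (Ltf, Ngp and Chil3), beside 0.644% of all genes tested. Without the second bKO library Ltf was the one called of these, and without the second WT library Camp, Lcn2 and Lyz2 were called as well.

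Markers of other cell types that a spleen sort could hold were read in the same way. The 20 monocyte and macrophage markers summed to 27.7 and 29.5 CPM in WT against 24.3 and 24.4 CPM in bKO, a ratio of 0.852 with no overlap, and none of the 8 tested was called by edgeR's quasi-likelihood test or by DESeq2 (1 higher and 2 lower at an unadjusted p under 0.05 in edgeR). The macrophage genes Adgre1 and Cd68 had log2 fold changes of -0.86 (adjusted p 0.165) and -0.55 (adjusted p 0.101) in the quasi-likelihood test, while Spic, a factor of splenic red pulp macrophages, had 39 and 37 counts in WT against 65 and 73 in bKO (log2 fold change 0.93, adjusted p 0.0695). Cd14 had 0 to 3 counts in each library. The 12 T cell markers summed to 53.0 and 77.8 CPM in WT against 49.0 and 63.6 CPM in bKO, and the 8 NK cell markers to 15.1 and 18.7 CPM in WT against 16.8 and 15.1 CPM in bKO. All 20 were tested and neither edgeR nor DESeq2 called any, with 0 higher and 1 lower at an unadjusted p under 0.05 in edgeR.

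The 11 erythroid markers found summed to 5.50 and 3.62 CPM in WT against 5.16 and 2.79 CPM in bKO, with none of 4 called by edgeR or DESeq2 or at an unadjusted p under 0.05. The 12 eosinophil, basophil and mast cell markers stayed between 0.210 and 0.733 CPM in sum, and none passed the filter, with Ear1, Cpa3 and Fcer1a at 0 throughout. Of the 13 platelet and megakaryocyte markers, summing to between 7.56 and 9.81 CPM, Selp rose (25 and 21 counts in WT, 55 and 54 in bKO, log2 fold change 1.31, SE 0.33, adjusted p 0.0319, quasi-likelihood test, and 0.0935 in DESeq2). Without WT replicate 2 or bKO replicate 1 its adjusted p was 0.150 and 0.136. Itga2b, the integrin gene of the same lineage, had 53 and 69 counts in WT against 40 and 30 in bKO (log2 fold change -0.71, SE 0.31, adjusted p 0.215), without overlap. At an unadjusted p under 0.05, 1 of the 3 tested was higher and 1 lower in edgeR. Pf4 had 0 to 3 counts, and Gp1bb, Gp6 and Treml1 were at 0 throughout. P-selectin, the product of Selp, is stored in platelets and endothelium.

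Among the lists of other cell types, that of dendritic cells had a higher sum in both bKO libraries. Its 8 genes summed to 14.6 and 17.7 CPM in WT against 24.2 and 32.3 CPM in bKO. Most of these counts were of Flt3, the receptor of FLT3 ligand, with 140 and 205 counts in WT against 277 and 436 in bKO (log2 fold change 1.12, SE 0.17, adjusted p 0.00149, quasi-likelihood test), and none of the other 4 tested passed. Its log2 fold change was 0.87 without the second bKO library and 0.97 without the first WT library, under 2-fold in both cases. Cd209a went the other way, with 14 and 24 counts in WT against 12 and 4 in bKO (log2 fold change -1.14), and was kept by the filter on account of its WT libraries. The log2 fold change was above 0 for 4 of the 5 tested. Clec9a and Xcr1 define a class of conventional dendritic cells. Clec9a had 2 and 3 counts in WT against 4 and 6 in bKO, and Xcr1 had 8 and 3 in WT against 2 and 1 in bKO. The part of each of these cell types in the counts of S100a8 and S100a9 was not tested.

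**Figure D4:**
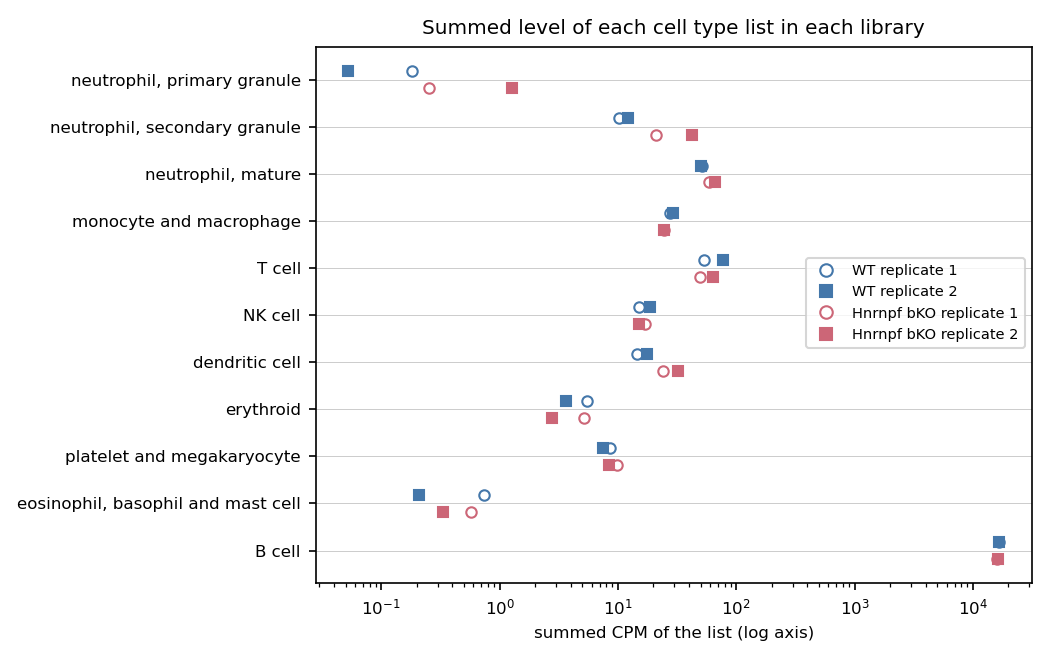
Summed CPM of each cell type list (x axis, log scale) in each library, with WT in blue and Hnrnpf bKO in red, open for replicate 1 and filled for replicate 2. The secondary granule list lies at 10.3 and 12.1 CPM in WT against 20.8 and 42.6 CPM in bKO, while the T cell, NK cell, erythroid, platelet and mast cell lists overlap between the genotypes and the B cell list lies between 16081 and 16766 CPM.

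Among B cell markers all 12 passed the filter and none changed 2-fold. At an adjusted p of 0.05 alone, 2 of 12 were higher, beside 4.15% of all genes tested, and 5 were lower, beside 2.83%. Fcer2a and Cr2, which encode the CD23 and CD21 of the sort, had log2 fold changes of 0.22 and -0.47. Their adjusted p was 0.0180 and 0.00140 in the quasi-likelihood test. The gate was set on both proteins, and its part in these values was not tested.

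S100a8 and S100a9 belong to a gene family clustered on chromosome 3, where 13 of the 16 S100 genes examined lie. Outside the pair, 5 family members were tested, and none was called by edgeR or DESeq2 (1 higher and 0 lower at an unadjusted p under 0.05 in edgeR). S100a10, the annexin A2 partner, had the highest counts of the family, with 1343 and 1516 counts in WT against 1231 and 1542 in bKO (log2 fold change 0.03, SE 0.07), and S100a11 followed with 735 and 748 counts in WT against 807 and 819 in bKO (log2 fold change 0.21, SE 0.09, adjusted p 0.226 in the quasi-likelihood test). S100a6 had a log2 fold change of -0.52 (SE 0.32), and S100a4 had 2 to 4 counts in each library. S100a3, S100a5, S100a7a, S100a16 and S100z were at 0 in all libraries. Across the cluster region, from the first to the last S100 gene, 7 other genes, those 5 among them, were tested and none was called, with log2 fold changes from -0.52 to 0.21.

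Camp, Ngp and Ltf also lie on the same chromosome, within 1195 kb of chromosome 9 (chr9:109847379-111042767), with 570129 bases between Camp and Ngp and 596258 between Ngp and Ltf. The 16 other genes tested in this stretch, such as Cdc25a, Setd2 and Smarcc1, gave none called, a median log2 fold change of -0.03 and a range from -0.55 to 0.25. The log2 fold changes of Camp, Ngp and Ltf were thus above those of these 16 neighbors. At an adjusted p of 0.05 alone, 1 of the 16 was higher, beside 4.15% of all genes tested, and 1 was lower, beside 2.83%, in edgeR. At an unadjusted p under 0.05, 1 of the 16 was higher and 2 were lower in edgeR, and DESeq2 called none. Mpo is the 1 gene of the 8 that overlaps another, Gm11505 on the opposite strand, which had no count in any library.

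Receptors and signal carriers for extracellular S100A8 and S100A9 were also read. Of the 17 listed, 15 were tested. At an unadjusted p under 0.05 in edgeR, 2 were higher and 3 lower, with no share of all genes given beside it. At an adjusted p of 0.05 alone in edgeR none was higher and 2 were lower, the latter beside 2.83% of all genes tested. DESeq2 gave 0 and 1. The 2 were Cd36, a scavenger receptor gene (28.9 CPM in WT against 20.9 in bKO, log2 fold change -0.47, SE 0.11, adjusted p 0.0265), and Tirap, an adaptor of TLR4 (27.6 and 19.3 CPM, log2 fold change -0.51, SE 0.11, adjusted p 0.0122), neither of which reached 2-fold. In the same test the adjusted p was 0.254 for Cd36 without WT replicate 2 and 0.0877 for Tirap without WT replicate 1. Tlr4 itself was at 20.5 CPM in WT against 20.4 CPM in bKO (log2 fold change -0.00, SE 0.12). Ager, which encodes RAGE, was at 5.99 and 6.87 CPM (log2 fold change 0.19, SE 0.20).

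Of 10 transcription factors of the myeloid program, 8 were tested. In edgeR none rose (0 at an unadjusted p under 0.05) and 1 of 8 fell, beside 0.255% of all genes tested, and DESeq2 called none. The gene that fell in edgeR was Klf4, a factor of monocyte development, at 3.59 CPM in WT against 1.62 CPM in bKO (log2 fold change -1.13, SE 0.31, adjusted p 0.0470, quasi-likelihood test, and 0.140 in DESeq2), and with any 1 library left out its adjusted p lay between 0.0504 and 0.216. Spi1, which encodes PU.1 and is also made by B cells, was at 101 and 99.9 CPM (log2 fold change -0.01, SE 0.07). Cebpe, the factor that drives secondary granule genes, had 0 and 5 counts in WT against 1 and 2 in bKO, and Cebpa had 0 and 1 in WT against 2 and 2 in bKO, so neither was tested.

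The genes with a profile most like that of S100a8 were ranked by the root mean square distance between log2 CPM profiles over the 4 libraries, each centered on its mean. S100a9 was the fourth of 14122 genes, at a distance of 0.12. The others of the nearest 10 were Iigp1 (0.07), Jdp2 (0.10), Gm47243 (0.10), Akap1, Cldn34c1, Eldr, Pcdhga12, Fam129a and Gm32914, the last at 0.16. The counts of these 9 genes ran from 4, 6, 16 and 23 for Cldn34c1 to 26, 43, 86 and 105 for Fam129a, with 7, 12, 19 and 33 for Iigp1, an interferon-inducible GTPase gene. Ngp ranked 20, Chil3 42, Camp 62, Lcn2 231, Ltf 250 and Lyz2 437, and Flt3 ranked 15. The ranking starts from the values on which S100a8 was selected, so genes high in bKO stand near it by construction, and with 4 libraries it was not tested.

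Of the 91 genes called higher in the Hnrnpf bKO libraries, 5 were in the neutrophil lists and 7 in any of the 14 lists. Selp and Flt3 were the other 2. S100a8 and S100a9 are 2 of those 5, and since they were selected on these counts their calls are no result. With the pair set aside, 3 of 14 tested genes of the neutrophil lists were called higher, beside 0.644% of all genes tested.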

How the data were processed

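The 4 libraries of sorted FOB cell RNA (2 WT, 2 Hnrnpf bKO) were grouped by the genotype of their labels. The authors trimmed reads with Cutadapt 1.9.1, aligned them to GRCm38 with HISAT2 2.0.1 and counted them per gene with HTSeq 0.6.1. The deposited counts are raw whole numbers. The FPKM values deposited by the authors scale them by exonic gene size and library total, rounded to 2 decimals. The strand setting and annotation release are not given in the sources used here. The splicing table holds only the authors' own comparison and was not used.

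Counts were compared with edgeR 4.0.16 in R 4.3.3 (TMM, filterByExpr, quasi-likelihood test, Benjamini-Hochberg adjustment over 14123 genes, with calls made at adjusted p ≤ 0.05 and a change of 2-fold or more). CPM values are TMM scaled. Alternatives were RLE size factors, DESeq2 1.42.0 (the tool the study's methods name), 2 other filters, limma-trend 3.58.1 on log2 FPKM (pseudocount 0.1 or 1, mean FPKM no lower than 0.5), a replicate block and each library left out. The test was checked on simulated counts. Intervals are 95% Clopper-Pearson for CPM and Wilson for shares. At this depth the median SE of a log2 fold change was 0.11.

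The 8 genes and the 14 lists were chosen with earlier results of these data known, so counts over them are descriptions. Counts at an unadjusted p under 0.05 stand without the share of all genes at that threshold. Whether they exceed that share was not tested. Named genes are the 8, Hnrnpf, Lyz1, list genes and the 10 genes nearest S100a8; list genes that did not pass, and genes between Camp and Ltf, were named after their values were seen. Of 178 list genes, 176 were found by symbol. Transcripts and exons are of GENCODE vM21 and promoters of RefSeq GRCm38.p6. Proteins were not analysed here, and some list genes are not reported here.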

Additional observations from a re-analysis of the deposited data

How the results depend on the processing

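S100a8 and S100a9 were picked for their counts, so their calls carry no weight in the counts below. Beside them, the neutrophil genes called higher were Ngp, Ltf and Chil3, and these were the same with RLE size factors, with DESeq2, with at least 10 counts in every library and with a replicate block. With no filter on low counts Camp and Lcn2 were added. On log2(FPKM + 0.1) and on log2(FPKM + 1), limma called 0 of 13 tested, S100a8 and S100a9 included. At an unadjusted p under 0.05 in limma, 6 of the 13 were higher on either scale, with no share of all genes given beside it. There Ngp had an adjusted p of 0.189 and 0.201 and Ltf of 0.155 and 0.174, and the cause was not tested.

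Over all genes, 91 were called higher and 36 lower. With no filter the counts were 150 and 67, with limma 17 and 5 on log2(FPKM + 0.1) and 16 and 3 on log2(FPKM + 1), and at an adjusted p alone 586 and 399. DESeq2 called 62 higher and 22 lower. The replicate block gave 71 higher and 27 lower, and the r of deviations of same-numbered libraries over all genes was -0.07. No source used here ties libraries of a number to each other, and 2 pairs cannot settle it. Of the 6 tested genes, S100a8 and S100a9 among them, 5 were higher in replicate 2 than in replicate 1 of both genotypes. The share of all genes in that order is not given, so this count does not bear on pairing.

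With each library left out, which leaves a lone library assumed to vary like the other pair, the calls ranged from 82 to 110 higher, from 28 to 56 lower and from 2 to 8 in the neutrophil lists, S100a8 and S100a9 included. The ratio of summed CPM ranged from 1.59 to 3.22 for the 6 genes not picked for their counts and from 2.08 to 3.26 for S100a8 and S100a9. Camp passed with no filter (adjusted p 0.00124), without WT replicate 2 (0.0248) and without Hnrnpf bKO replicate 1 (0.0172), and Lyz2 passed without WT replicate 2 (0.0477), all by the quasi-likelihood test. With S100a8 and S100a9 set aside, the log2 fold changes of Ngp, Camp, Ltf and Lyz2 stayed above 0 in all 11 alternatives. These alternatives all reuse the same libraries. Genes with few counts, Elane and Mpo first, are limited by depth, and 2 libraries a group limit all tests.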
